A study of Mus musculus with 6 samples.

Results

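The genes of 10 endothelial transcription factors were examined in embryonic mouse skin with and without Tie1: Nr2f2, Sox7, Sox17, Sox18, Erg, Fli1, Ets1, Tal1, Hhex and Mef2c. They were taken by gene symbol, and all 10 were found among the 19131 genes of each table. Whole skin at embryonic day 17.5 came from 3 Tie1 knockout and 3 Tie1 control samples, all on the strain background C57BL/6N, and was profiled by bulk RNA-seq. In every sample name Tie1 is followed by ECD, left unexplained by the labels. The cells and the exons from which Tie1 was removed are not named there either. Nothing says that libraries were made from separate embryos or litters, so the p-values measure only the spread between these samples. In whole skin, fewer cells of a type and less RNA per cell cannot be told apart.

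Endothelial cells have no single master regulator. Their identity is held by several families that bind neighbouring sites in the same enhancers: ETS factors (ERG, FLI1, ETS1) at the word GGAA, SOXF factors (SOX7, SOX17, SOX18) at words close to ACAAT, TAL1 at E-boxes together with GATA factors, MEF2C at AT-rich sites, and the homeodomain protein HHEX. COUP-TFII, encoded by Nr2f2, promotes vein over artery identity and, with SOX18, switches on Prox1 when lymphatic cells leave veins. TIE1 is the orphan receptor kinase that works beside TIE2, the receptor of the angiopoietins. By its title the series is about how TIE1 limits sprouting while veins are put together.

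The promoter of the deleted gene and those of 2 of the factors are shown because they carry the binding words named above: Tie1 as a gene that ETS factors are known to drive, Tal1 as the factor with the largest difference below, and Erg as the ETS factor with the widest spread among controls. Each run is RefSeq sequence of GRCm38.p6, read 5′ to 3′ on the gene's strand, from 250 bases before to 50 bases after an annotated start. Capitals mark the ETS word GGAA, the SOX word ACAAT and, as the word of the GATA partners of TAL1, AGATAA. Each word was searched on both strands, so its reverse complement is in capitals too, and no matches overlap in these windows.
Tie1, chr4:118489800-118490099, minus strand: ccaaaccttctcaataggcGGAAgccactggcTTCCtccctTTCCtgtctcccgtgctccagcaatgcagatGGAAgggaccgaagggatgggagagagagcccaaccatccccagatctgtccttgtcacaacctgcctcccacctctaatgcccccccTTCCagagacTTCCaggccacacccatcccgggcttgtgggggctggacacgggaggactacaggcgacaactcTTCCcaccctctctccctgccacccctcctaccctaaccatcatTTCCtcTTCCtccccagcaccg
Tal1 start 1, chr4:115056176-115056475, plus strand: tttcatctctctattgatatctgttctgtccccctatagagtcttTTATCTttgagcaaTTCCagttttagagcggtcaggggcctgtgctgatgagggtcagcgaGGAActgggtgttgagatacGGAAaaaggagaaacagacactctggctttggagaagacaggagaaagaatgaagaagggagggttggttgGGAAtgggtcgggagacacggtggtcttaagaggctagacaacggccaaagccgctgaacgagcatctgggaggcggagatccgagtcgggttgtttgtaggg
Tal1 start 2, chr4:115057561-115057860, plus strand: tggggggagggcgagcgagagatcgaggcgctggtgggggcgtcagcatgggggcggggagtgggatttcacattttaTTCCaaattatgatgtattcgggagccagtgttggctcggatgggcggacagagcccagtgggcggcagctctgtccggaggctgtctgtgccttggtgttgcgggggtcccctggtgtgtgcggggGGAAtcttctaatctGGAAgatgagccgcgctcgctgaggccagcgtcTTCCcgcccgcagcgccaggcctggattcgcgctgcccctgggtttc
Erg start 3, chr16:95459299-95459598, minus strand: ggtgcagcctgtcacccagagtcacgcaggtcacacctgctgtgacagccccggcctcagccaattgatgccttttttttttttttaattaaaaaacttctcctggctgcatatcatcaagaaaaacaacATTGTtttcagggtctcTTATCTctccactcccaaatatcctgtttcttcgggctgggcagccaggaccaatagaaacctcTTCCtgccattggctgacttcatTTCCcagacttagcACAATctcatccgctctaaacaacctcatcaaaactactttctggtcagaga

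The Tie1 window held 9 ETS words, each Tal1 window 4 and this Erg window 2. The Tal1 window at start 1 also held 1 GATA word, and this Erg window 2 SOX words and 1 GATA word. The Erg windows at starts 1 and 2, not shown, held 1 and 4 ETS words and 0 SOX or GATA words. An ETS word lay in 96.0% of all 32851 promoter windows of this length, with a median of 3, a SOX word in 31.0% and a GATA word in 11.2%. A match is therefore a description of these letters and marks no site in use. Of the 10 factors, 5 matched the promoter table with 10 windows in all: Nr2f2, Erg, Tal1, Hhex and Mef2c.

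Each table holds estimated read counts, 19826856 to 20591164 in a library. Levels are given in CPM, the read count relative to the library total after TMM scaling. Groups were compared with edgeR's quasi-likelihood test over all 15035 genes with enough reads, and a gene is called changed at a Benjamini-Hochberg adjusted p under 0.05. Tie1 stood at 4.33, 2.63 and 2.26 CPM in the knockout and 58.6, 50.7 and 60.0 CPM in the control libraries, so the labels match the gene. Knockout 1 and control 1 stand apart from the other libraries in hair follicle genes (mean log2 CPM of 8 markers 3.37 and 3.63, against 5.13 to 5.84), and posterior Hox genes, which mark body position, ranged from 1.27 to 2.91 on the same scale. Y-linked genes were near background in 1 of 3 knockout and 2 of 3 control libraries (knockout 1, control 1 and control 2, from −1.38 to −1.03, against 5.08 to 5.28 in the others), so the sexes were not balanced between the groups. The 18 pan-endothelial markers, all of them tested, had a mean log2 CPM of 5.43 ± 0.078 in the knockout and 5.42 ± 0.099 in the control (SD, n = 3 each, two-sided exact permutation p = 0.9), and they summed to 1043 to 1201 and 976 to 1110 CPM. This level mean joins single markers that moved in opposite ways. Knockout and control libraries were fully apart for 8 of the 18, against 13.8% of all genes. Of these, 5 lay above the controls and 3 below. Robo4 and Cd93 had log2 fold changes of 0.40 and 0.39, Plvap and Emcn of −0.59 and −0.52. None of the 18 was called by edgeR.

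None of the 10 factors changed by the threshold. All 10 passed the filter on low counts, and edgeR called 0 of them, against 0.160% of all genes (24 of 15035). DESeq2 and limma-voom called 0 as well, against 1.40% and 0.0998% of all genes. An unadjusted p under 0.05 was reached by 3 of the 10, against 7.42% of all genes: 2 were higher (Ets1 and Sox17; 4.08% of all genes) and 1 lower (Tal1; 3.35%). For the same 3 factors the knockout and control libraries did not overlap, against 13.8% of all genes, again with 2 higher (7.03%) and 1 lower (6.78%). The fold changes were small: no factor differed by more than 0.5 on the log2 scale, the median was −0.11 beside 0.0038 over all genes tested, and 7 of 10 lay below 0. The median absolute log2 fold change was 0.26, beside 0.097 over all genes tested.

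**Figure D1:**
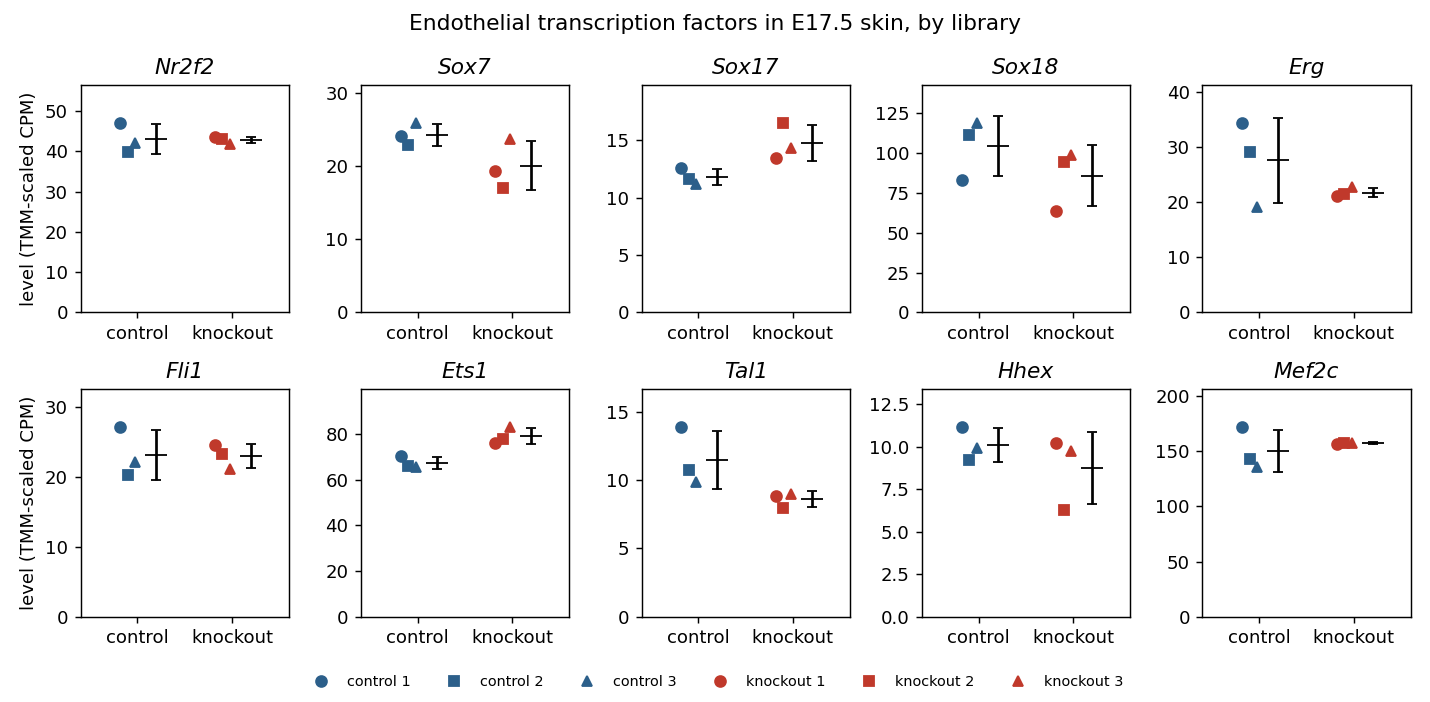
Level of each factor (TMM-scaled CPM, linear axes from 0) in every library, with the mean and SD of 3 libraries as a bar to the right of the points. The knockout libraries lie wholly above the controls for Sox17 and Ets1 and wholly below for Tal1, and the groups overlap for the other factors.

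The 3 SOXF genes, which act redundantly in vessel growth and in arterial and lymphatic specification, did not point one way. Sox17 (chromosome 1, 4490928 to 4497426, minus strand), the SOXF gene most tied to arteries, stood at 13.5, 16.5 and 14.3 CPM in the knockout and 12.6, 11.6 and 11.2 CPM in the control libraries. Every knockout library was above every control library. The log2 fold change was 0.32 (SE 0.11, adjusted p = 0.541 by edgeR), a ratio of 1.25 with a 95% interval of 1.04 to 1.5. With the posterior Hox score as a covariate it was 0.20 (SE 0.16, adjusted p = 0.741 by edgeR). Sox7 (chromosome 14, 63943706 to 63950732, plus strand) stood at 19.4, 17.1 and 23.7 CPM in the knockout and 24.1, 22.9 and 25.9 CPM in the control libraries. Knockout 3 lay within the control range and the other knockout libraries below it. Its log2 fold change was −0.28 (SE 0.13, adjusted p = 0.685 by edgeR; ratio 0.825, 95% interval 0.669 to 1.02), and it was −0.42 without knockout 3 and −0.18 without knockout 2. An RNA on the other strand, Gm37587, overlaps Sox17. Whether counting used strand was not given in the sources used here, and without strand the reads of both cannot be told apart.

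Sox18 (chromosome 2, 181669837 to 181671640, minus strand), the SOXF gene whose mutation disturbs both lymphatic vessels and hair follicles, varied widely within each group, with a mean of 85.8 ± 19.1 CPM in the knockout and 104 ± 19.0 CPM in the control (SD, n = 3). It stood at 63.9, 94.7 and 98.7 CPM in the knockout and 83.0, 111 and 119 CPM in the control libraries. Knockout 1 and control 1, the libraries with the lowest hair follicle scores, were the lowest of their groups. The log2 fold change was −0.28 (SE 0.20, adjusted p = 0.801 by edgeR), with a 95% interval of the ratio from 0.585 to 1.15. Without both of these libraries it was −0.25 (SE 0.070, adjusted p = 0.187 by edgeR), and −0.11 without knockout 1 alone. With the hair follicle score as a covariate, chosen after seeing these values, it was −0.23 (SE 0.060, adjusted p = 0.205 by edgeR). With the posterior Hox score as a covariate it was −0.066 and with a score of Y-linked genes −0.44, and neither was called. Dermal papilla markers, another place where Sox18 is made, were in sum also lowest in knockout 1 and control 1 (179 and 190 CPM over 7 markers, against 227 to 235). Wif1 made up most of these sums, at 106 CPM in both libraries. Corin, Alx4, Sox2 and Wif1 were each lowest there, but Fgf7, Fgf10 and Rspo3 were not. Control 1 had the highest Fgf7 and Fgf10 of all libraries (9.72 and 23.3 CPM). The part of dermal papilla cells in the level of Sox18 was not tested.

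Among the ETS genes, Ets1 was higher and Fli1 level. Ets1 (chromosome 9, 32636241 to 32757820, plus strand), a factor of migrating and sprouting endothelium that lymphocytes also make, stood at 76.3, 78.2 and 83.2 CPM in the knockout and 70.3, 66.3 and 65.7 CPM in the control libraries. The groups did not overlap. The log2 fold change was 0.23 (SE 0.064, adjusted p = 0.380 by edgeR), a ratio of 1.18 with a 95% interval of 1.06 to 1.30. It ranked 293 of 15035 genes by p, the first of the 10 factors, and stayed between 0.20 and 0.26 with any 1 library left out. Lymphocyte markers were lower in the same libraries, summing to 12.2 to 14.8 CPM in the knockout and 15.5 to 19.6 CPM in the control over the 6 markers in the tables.

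Fli1 (chromosome 9, 32422204 to 32543432, minus strand), which shares nearly the same DNA-binding domain with ERG and lies 92.8 kb from Ets1, stood at 24.6, 23.3 and 21.2 CPM in the knockout and 27.1, 20.2 and 22.1 CPM in the control libraries. The knockout values lay inside the control range. Its log2 fold change was −0.0078 (SE 0.13, adjusted p = 0.995 by edgeR), and the 95% interval of the ratio, 0.811 to 1.22, holds the estimate for Ets1. Antisense RNAs are annotated across both genes (Gm27201 and Gm27240), and without strand their reads cannot be told apart from those of the factors.

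Erg (chromosome 16, 95359169 to 95586600, minus strand), the most endothelium-restricted of the ETS factors, was even across the knockout and scattered across the controls. It stood at 21.0, 21.5 and 22.6 CPM in the knockout and 34.3, 29.1 and 19.2 CPM in the control libraries, an SD of 3.79% and 28.0% of the mean. Control 1 and control 2 lay above all knockout libraries and control 3 below them. The log2 fold change was −0.34 (SE 0.20, adjusted p = 0.747 by edgeR; ratio 0.788, 95% interval 0.566 to 1.10). It depended on single controls, from −0.15 without control 1 to −0.55 without control 3 (adjusted p = 0.825 and 0.229 by edgeR). The posterior Hox score was 2.68, 1.81 and 1.27 in controls 1, 2 and 3 and 2.54 to 2.91 in the knockout. With that score as a covariate the value for Erg was −0.76 (SE 0.15, adjusted p = 0.212 by edgeR).

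**Figure D2:**
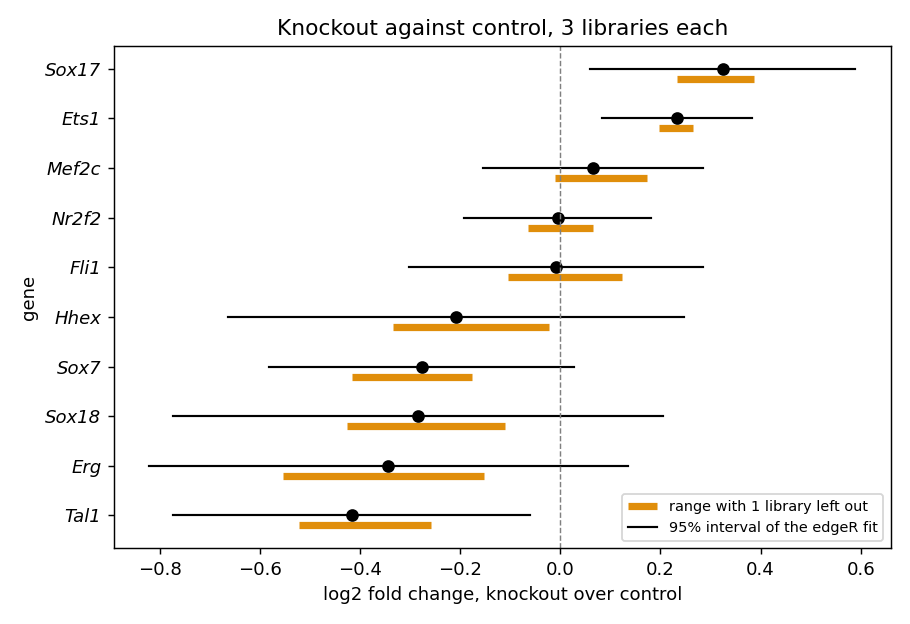
Log2 fold change of each factor, knockout over control (points), with the 95% interval of the edgeR fit (black lines) and the range over fits with 1 library left out (orange bars). The intervals of Sox17, Ets1 and Tal1 lie to one side of 0, and the widest range with 1 library left out is that of Erg, from −0.55 to −0.15.

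Tal1 (chromosome 4, 115056426 to 115071755, plus strand), the basic helix-loop-helix factor that starts blood and vessel development, had the largest difference of the 10. It stood at 8.87, 7.98 and 9.03 CPM in the knockout and 13.9, 10.7 and 9.87 CPM in the control libraries. All knockout libraries were below all controls, but control 1 alone lay well above the rest. The log2 fold change was −0.42 (SE 0.15, adjusted p = 0.574 by edgeR), a ratio of 0.749 with a 95% interval of 0.585 to 0.960. Without control 1 it was −0.26 (SE 0.12, adjusted p = 0.633 by edgeR), and with the posterior Hox score as a covariate −0.68 (SE 0.16, adjusted p = 0.281 by edgeR). Of the markers of blood cells that make Tal1, some varied with it and others did not. Mast cell markers summed to 1420 to 1446 CPM in the knockout and 2188 to 2902 CPM in the control, with control 1 the highest, and all 5 of those tested had non-overlapping groups. Erythroid markers summed to 6284 CPM in control 1 and 2474 to 3310 CPM in the other 5 libraries. Of the 7 erythroid markers, 5 had log2 fold changes below 0 and 2 above. Megakaryocyte and platelet markers went the other way in sum, at 69.5 to 160 CPM in the knockout and 54.4 to 67.6 CPM in the control. Ppbp alone gave 95.6 CPM of the sum in knockout 2, and Pf4 made up most of the sum in every other library. Of the 5 tested, 4 had log2 fold changes above 0, Gp1ba among them at 0.17 (SE 0.39). The other, Itga2b, stood at −0.22 (SE 0.18), and Gp9 had too few reads to be tested. The part of these cells in the level of Tal1 was not tested.

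**Figure D3:**
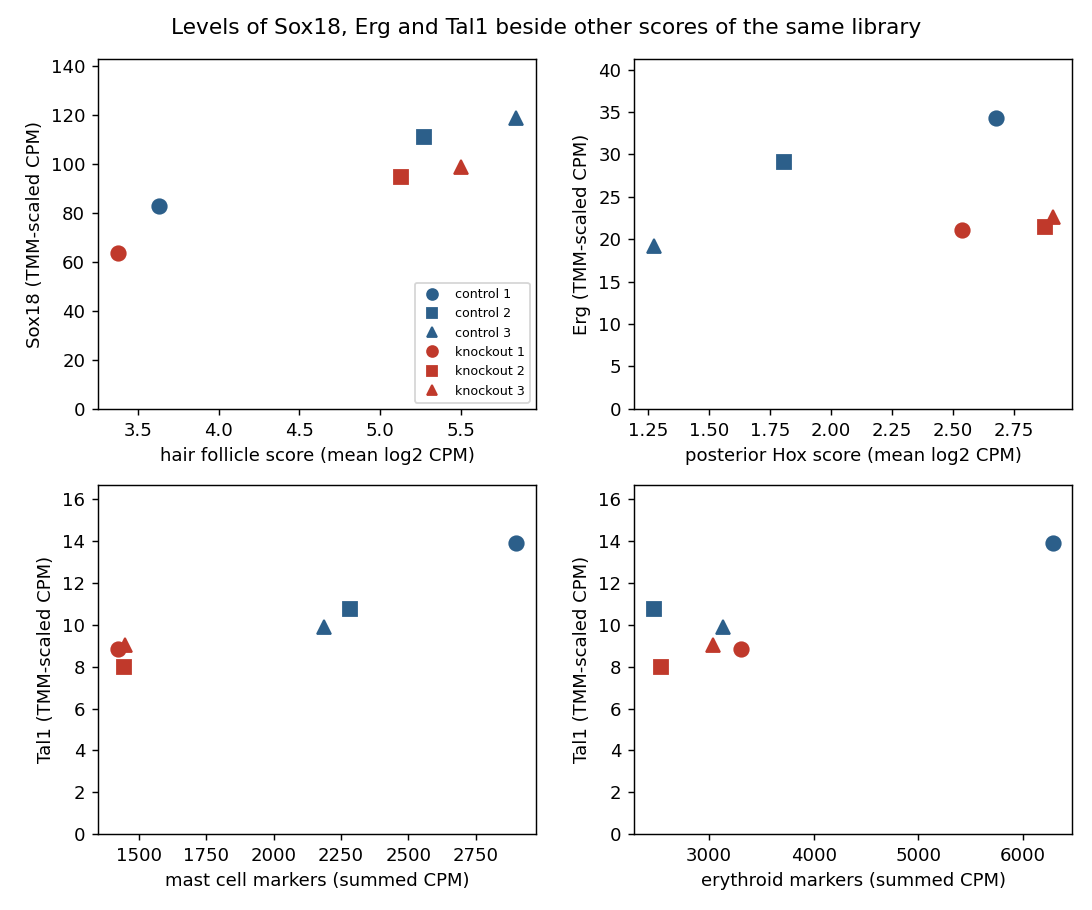
Sox18 against the hair follicle score, Erg against the posterior Hox score, and Tal1 against summed mast cell and erythroid markers, 1 point per library (vertical axes in TMM-scaled CPM from 0). Sox18 is lowest where the hair follicle score is lowest (knockout 1 and control 1), and Tal1 is highest in control 1, where mast cell and erythroid markers reach 2902 and 6284 CPM.

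Hhex and Mef2c did not separate the groups. Hhex (chromosome 19, 37434841 to 37440731, plus strand), a homeobox gene of early endothelium needed for lymphatic growth, stood at 10.2, 6.30 and 9.72 CPM in the knockout and 11.1, 9.21 and 9.92 CPM in the control libraries. Only knockout 2 was below the control range. Its log2 fold change was −0.21 (SE 0.19, adjusted p = 0.837 by edgeR), and −0.022 without knockout 2. Mef2c (chromosome 13, 83504017 to 83667079, plus strand), which endothelium, muscle and B cells all make, stood at 156, 158 and 158 CPM in the knockout and 172, 143 and 136 CPM in the control libraries. The knockout libraries were nearly equal and lay inside the spread of the controls. Its log2 fold change was 0.066 (SE 0.094, adjusted p = 0.902 by edgeR; ratio 1.05, 95% interval 0.899 to 1.22), and 0.17 without control 1. The skeletal muscle markers ranged wider in the same knockout libraries, at 7719, 8881 and 12656 CPM in sum, and from 9458 to 10066 CPM in the controls.

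Nr2f2 (chromosome 7, 70351946 to 70366746, minus strand), the gene of the vein-promoting receptor COUP-TFII, was level between the groups. It stood at 43.5, 43.0 and 41.9 CPM in the knockout and 47.1, 39.9 and 42.0 CPM in the control libraries. All knockout values lay inside the control range. The log2 fold change was −0.0051 (SE 0.080, adjusted p = 0.995 by edgeR). The 95% interval of the ratio from this fit was 0.876 to 1.13, in whole skin, where fibroblasts also make Nr2f2. With the posterior Hox score as a covariate the log2 fold change was −0.10 (SE 0.10, adjusted p = 0.794 by edgeR). Fibroblast markers summed to 35003 to 38027 CPM in the knockout and 33298 to 39338 CPM in the control. An RNA on the other strand, B130024G19Rik, overlaps the gene.

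Per kilobase of the longest principal transcript, the 10 factors were ordered as follows in control skin. Sox18 was first at 64.5 ± 11.7 and Mef2c next at 58.1 ± 7.43 CPM per kb (SD, n = 3), levels that do not differ beyond their spread. Ets1 followed at 13.3 ± 0.497 and Nr2f2 at 10.2 ± 0.877 CPM per kb. Erg at 8.48 ± 2.37, Sox7 at 7.36 ± 0.464 and Fli1 at 6.97 ± 1.08 CPM per kb had overlapping spreads. That of Erg also covered the mean of Nr2f2. Hhex at 5.60 ± 0.544, Sox17 at 3.77 ± 0.227 and Tal1 at 2.73 ± 0.504 CPM per kb came last. The order depends on the length used: per kilobase of all annotated exons Mef2c was at 9.57, Nr2f2 at 4.98 and Hhex at 2.0 CPM per kb, while Sox18 was unchanged at 64.5. In the knockout the same measure gave 60.8 ± 0.301 for Mef2c, 52.9 ± 11.8 for Sox18 and 4.72 ± 0.503 CPM per kb for Sox17.

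Set against the pan-endothelial mean of the same library, Ets1, Sox17 and Tal1 still separated the groups, and so did Sox7. The markers in that mean moved both ways, as given above, and include all ETS targets listed below except Vwf and Nos3. Levels relative to that mean and the results for those targets are therefore not separate. Ets1 stood 0.88 ± 0.025 above that mean in knockout and 0.66 ± 0.072 above it in control libraries, on the log2 CPM scale (SD, n = 3). Sox17 stood at −1.54 ± 0.18 in knockout and −1.85 ± 0.085 in control libraries, Tal1 at −2.30 ± 0.076 and −1.90 ± 0.21, and Sox7 at −1.11 ± 0.17 and −0.81 ± 0.092. For these 4 genes the groups did not overlap, with a two-sided exact permutation p = 0.1, the smallest that 3 against 3 libraries allow, and 0.25 when adjusted over the 10 factors. The share of all genes that separate the groups on this relative scale was not computed, so the count cannot be called unusual. The other 6 had exact permutation p-values from 0.3 to 1. The difference was −0.0073 for Nr2f2.

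**Figure D4:**
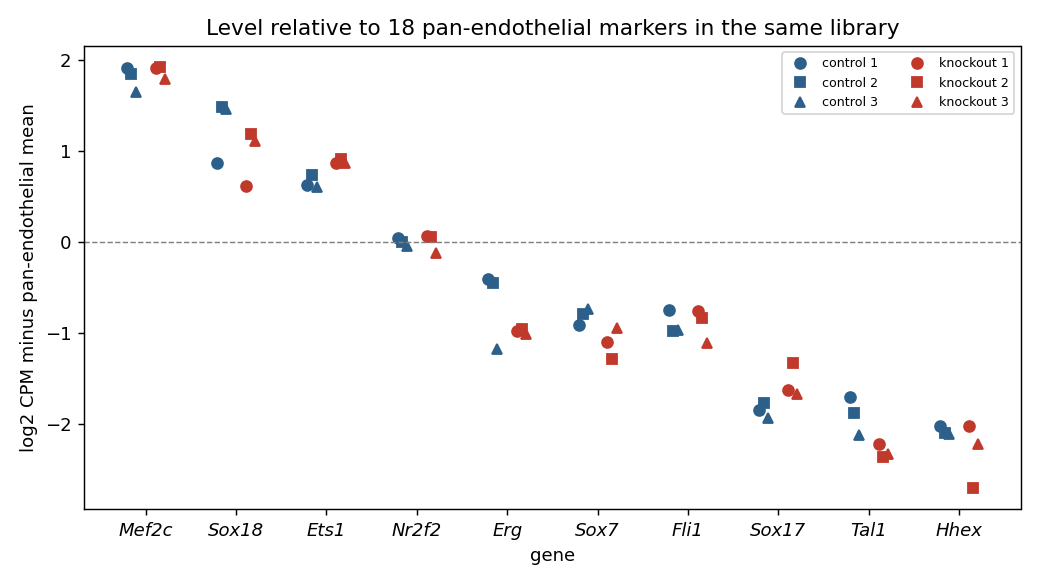
Level of each factor relative to the mean of 18 pan-endothelial markers in the same library (log2 CPM difference, not per length, so heights compare libraries of 1 gene and not genes). Knockout points lie above control points for Ets1 and Sox17 and below for Tal1 and Sox7.

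Over the 6 libraries the pan-endothelial gene with the pattern most like that of a factor was Pecam1 for Ets1 (Pearson r = 0.97, Spearman rho = 0.94), Kdr for Sox7 (r = 0.96, rho = 0.89) and Emcn for Tal1 (r = 0.94, rho = 1). These are the highest of 18 values each, given as a description of 6 libraries that share genotype and composition. For the other 7 factors the highest r was between 0.60 and 0.83.

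The relatives of the factors, taken from lists of known family members and partners, mostly had fold changes near 0. Of 15 tested ETS relatives edgeR called 0, 0 had an unadjusted p under 0.05, and the median log2 fold change was −0.020. Ets2, the closest relative of Ets1, was higher in every knockout library at 299 ± 7.50 against 258 ± 31.8 CPM (log2 fold change 0.21, SE 0.096, adjusted p = 0.685 by edgeR). Etv1, Etv4 and Etv5, which respond to growth factor signaling, had log2 fold changes of 0.42, 0.27 and 0.30, none called. Etv2, which starts endothelial fate in the early embryo and is then shut off, had under 3 reads in every library. Of 8 tested MEF2 and COUP-TF relatives and class IIa histone deacetylases, which restrain MEF2, 0 were called and 0 had an unadjusted p under 0.05. Their median was 0.12 and 7 lay above 0. Of the 8, 2 were separated between the groups, against 13.8% of all genes: Hdac5 and Mef2d, at 0.16 (SE 0.074) and 0.11 (SE 0.057). Nr2f1 and Hdac9 stood at 0.43 and 0.28.

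Of 8 tested partners of TAL1 edgeR called 0. An unadjusted p under 0.05 was reached by 3, all lower, against 7.42% of all genes (3.35% lower). These were Gata1 at −0.95 (SE 0.35), Gata2 at −0.50 (SE 0.20) and Lyl1 at −0.47 (SE 0.19), with adjusted p = 0.573, 0.653 and 0.615 by edgeR. All 3 were highest in control 1, and without that library they stood at −0.53, −0.25 and −0.34. Gata1 is a gene of red cells, platelets and mast cells, Gata2 of endothelium, progenitors and mast cells. Of the marker sums given with Tal1, that of mast cells was lower in the knockout libraries. The erythroid sum was highest in control 1, and the platelet sum, mostly Pf4 or Ppbp, was higher in the knockout. Lmo2, the adaptor of the complex, stood at 0.090 (SE 0.10, adjusted p = 0.872 by edgeR), and Ldb1, Tcf3, Tcf12 and Cbfa2t3 made up the remaining partners. The list's median was −0.034.

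Of 18 other tested endothelial transcription factors 1 fell. Foxc2, the forkhead factor of lymphatic and venous valves, stood at 0.585 ± 0.121 CPM in knockout against 3.62 ± 1.17 CPM in control skin, a log2 fold change of −2.62 (SE 0.32, adjusted p = 0.0411 by edgeR). This call was lost with each single library left out, with edgeR adjusted p up to 0.282 over all alternatives. Prox1, the lymphatic switch that SOX18 and COUP-TFII turn on, stood at 9.22 ± 0.983 against 17.7 ± 5.11 CPM with no overlap (log2 fold change −0.94, SE 0.22, adjusted p = 0.272 by edgeR), and was called by DESeq2 (adjusted p = 0.00935). Klf2, the flow-induced factor that MEF2 factors drive, stood at −0.43 (SE 0.14) and Nfatc1, a valve factor, at −0.37 (SE 0.15), neither called. These 4 of the 18 had an unadjusted p under 0.05, all lower, against 7.42% of all genes (3.35% lower). The list's median was −0.087, with 11 genes below 0 and 7 above.

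Among genes known to be driven by the factors or otherwise linked to them, 1 passed the threshold. Of 13 tested ETS targets 1 fell: Vwf, the gene of von Willebrand factor, at 15.3 ± 2.11 against 35.4 ± 3.13 CPM (log2 fold change −1.21, SE 0.12, adjusted p = 0.0247 by edgeR). That call held without knockout 1 and was lost without each of the other libraries, with the posterior Hox score as a covariate (−1.15, adjusted p = 0.168 by edgeR) and with the pan-endothelial score (−1.22, adjusted p = 0.0521 by edgeR). Nos3, endothelial nitric oxide synthase, stood at −0.63 (SE 0.11, adjusted p = 0.135 by edgeR), Robo4 at 0.40 (SE 0.096) and endoglin, Eng, at 0.27 (SE 0.066). In all 5 of the 13 had an unadjusted p under 0.05, with 3 higher and 2 lower, against 7.42% of all genes. The median was −0.17. All of the 13 except Vwf and Nos3 are also among the 18 pan-endothelial markers.

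Of 8 tested SOXF targets edgeR called 0, and 3 had an unadjusted p under 0.05 (Dll4, Efnb2 and Prox1), against 7.42% of all genes. Dll4, a Notch ligand made by arterial and tip cells, stood at 25.8 ± 4.30 against 12.5 ± 1.77 CPM (log2 fold change 1.05, SE 0.15, adjusted p = 0.0702 by edgeR), and DESeq2 called it (adjusted p = 2.72e-06). Efnb2, the arterial ephrin, stood at 0.23 (SE 0.077), Kdr, the main VEGF receptor, at −0.17 (SE 0.075), and Prox1 as above. The median was 0.19. Of 8 vein and artery genes linked to COUP-TFII edgeR called 0. An unadjusted p under 0.05 was reached by 2 (Aplnr and Efnb2), against 7.42% of all genes. Aplnr, the apelin receptor of veins, stood at 32.4 ± 5.44 against 98.1 ± 24.7 CPM (log2 fold change −1.60, SE 0.21, adjusted p = 0.0678 by edgeR), DESeq2 called it (adjusted p = 7.20e-12), and the venous receptor gene Ephb4 stood at −0.18 (SE 0.085) and the arterial repressor gene Hey2 at 0.20 (SE 0.13). The median of this list, which holds vein and artery genes together, was −0.077, with 4 genes above 0 and 4 below. Whether targets and factors differ in the size of their fold changes was not tested.

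**Figure D5:**
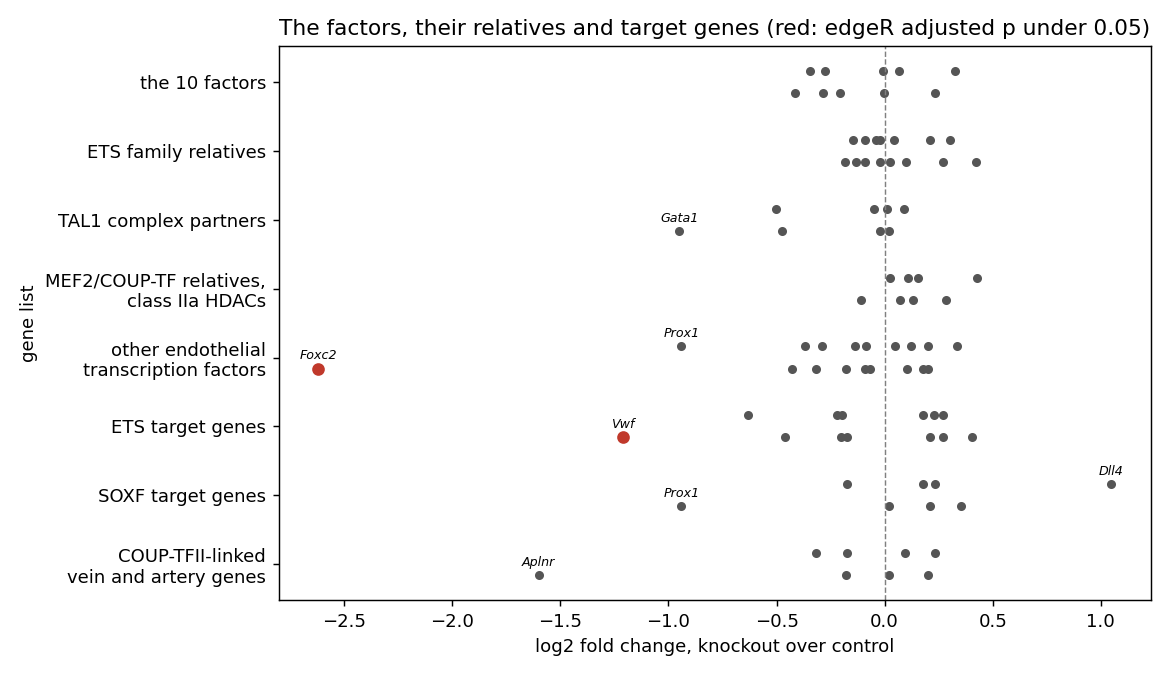
Log2 fold change, knockout over control, of each tested gene of the 10 factors, 4 lists of relatives and 3 lists of targets, 1 point per gene (vertical offsets only separate points). Foxc2 and Vwf, in red, are the called genes, and the 10 factors all lie within 0.5 of 0.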

How the data were processed

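The 6 deposited tables hold, per the file headers, estimated counts of reads (expected counts), 1 value per gene and not normalized by the authors, for 3 knockout and 3 control skin libraries. RSEM 1.2.12, Bowtie2 2.2.5, HISAT2 2.0.4 and the build GRCm38.p6 stand in the submitters' processing notes, without roles. The use of strand was not given in the sources used here. Estimated counts share reads between similar sequences by a model. Counts were rounded, filtered with filterByExpr (minimum count 10), scaled by TMM and tested in edgeR 4.0.16 (R 4.3.3) with the robust quasi-likelihood F test, genotype alone and Benjamini-Hochberg adjustment over 15035 genes. The test was tried on simulated data. The SE is the absolute log2 fold change over the square root of F, and 95% intervals use the t quantile of the fit's degrees of freedom. Log2 CPM used a prior count of 2. Alternatives were other scalings and filters, DESeq2 1.42.0, limma-voom 3.58.1, covariates, a replicate block and left-out libraries.

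The members and gene lists were chosen with earlier results of these data known. Named genes were Tie1, the 10 factors, called genes and up to 4 genes of smallest p per list of relatives and targets, and for each factor the pan-endothelial gene most like it. Coordinates come from RefSeq, transcript lengths and overlaps from GENCODE M21, both GRCm38.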

Additional observations from a re-analysis of the deposited data

How the results depend on the processing

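None of the 10 factors was called under any of the 20 alternatives, and Sox7, Sox17, Sox18, Erg, Ets1, Tal1 and Hhex kept their direction in all of them. The sign of the log2 fold change turned for Nr2f2 and Fli1 without both libraries numbered 1 (0.054 and 0.073) and with the Y-linked score (0.0077 and 0.029), and for Mef2c with the posterior Hox score (−0.13). With 1 library left out it ran from −0.064 to 0.065 for Nr2f2, −0.10 to 0.12 for Fli1 and −0.0097 to 0.17 for Mef2c. Relative to the pan-endothelial mean it turned for Nr2f2 and Fli1 when the median of the list was used (0.037 and 0.039), and ran from −0.041 to 0.053, −0.076 to 0.0995 and −0.010 to 0.12 for Nr2f2, Fli1 and Mef2c with 1 library left out.

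The 24 called genes became 38 with no filter, 210 with DESeq2, 15 with limma-voom, 139 without both libraries numbered 1, 3 with the posterior Hox score, 14 with the muscle score, 10 with the pan-endothelial score, 126 with the hair follicle score (chosen after seeing the data) and 1 to 11 with 1 library left out. The 1 called relative, Foxc2, became 2 genes with DESeq2 and 0 with limma-voom, with the posterior Hox, muscle and pan-endothelial scores and with any 1 library left out (0 to 0). The 1 called target, Vwf, became 2 with no filter or the Y-linked score, 5 with DESeq2, 3 without both libraries numbered 1 or with the hair follicle score, 1 other gene (Aplnr, with Vwf lost) with the posterior Hox score, 0 with the pan-endothelial score, and 0 to 1 with 1 library left out. The cause was not tested.

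Same-numbered libraries deviated together with correlations of 0.41, 0.043 and 0.27. Knockout 1 and knockout 3 were closest to the control of their own number, and knockout 2 was closest to control 3. The labels name no pairing, and so few libraries cannot settle whether same-numbered ones share more than a number. With the replicate number as a block 52 genes were called, 2 of them targets (Vwf and Dll4), 1 a relative and 0 among the factors. The median log2 fold change of all genes was 0.0038 with TMM and RLE scaling and −0.027 with upper-quartile scaling. The 3 libraries of a group limit what these small differences can show.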
